A study of Homo sapiens with 6 samples.

Results

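With 1 exception, the genes described here encode the subunits of the human proteasome, its activators and inhibitor, and the factors that assemble it. They were chosen by name, as every gene of the count table whose symbol begins with PSMA to PSMG followed by a number, leaving out PSMB8 and PSMB9. This gave 43 of the 15585 genes in the table. The exception is PSMC3IP, which matched by name only and is included in the counts of proteasome genes. PSMA8, PSMB11, PSME1 and PSME2 have no values in the table and were not analysed here. The RNA came from U2OS, an established human osteosarcoma line, 48 h after transfection with siRNA. The siCTR group received control siRNA and the siLSD1 group received siRNA against LSD1, with 3 libraries of bulk RNA sequencing in each group. The libraries held 12513511 to 13561344 counted reads each. The comparison of siLSD1 with siCTR asks how RNA levels differ when LSD1 is depleted. The labels do not say whether the libraries came from separate cultures, so the p-values measure the spread between these samples.

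The proteasome degrades proteins that carry chains of ubiquitin. Its barrel-shaped core, the 20S particle, is built of stacked rings: outer α rings that gate the entrance and inner β rings that hold the proteolytic sites. A 19S cap on the end of the core binds the ubiquitin chain, removes it, unfolds the substrate with a ring of ATPases and feeds it into the core. Dedicated chaperones build the α ring and the cap and leave the finished particle, and alternative activators can take the place of the cap. When proteasome activity is short, the transcription factor NRF1, encoded by NFE2L1, is known to raise the transcription of many subunit genes together through antioxidant response elements.

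KDM1A, which encodes the histone demethylase LSD1, was the siRNA target. Its level was 473, 506 and 489 CPM (reads scaled to a common library size after TMM normalisation) in siCTR replicates 1, 2 and 3, and 82.7, 96.1 and 92.4 CPM in siLSD1 replicates 1, 2 and 3. Every siLSD1 library was far below every siCTR library. KDM1A fell from 489 ± 16.4 CPM to 90.4 ± 6.92 CPM (mean ± SD, n = 3 in each group), to 18.5% of the siCTR mean. Its log2 fold change was -2.44 (SE 0.11), with an adjusted p of 2.27e-07 (edgeR quasi-likelihood, Benjamini-Hochberg over the 11844 genes tested). Every log2 fold change here is siLSD1 against siCTR, so a negative value is lower in siLSD1.

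Markers of cell type were read in the same libraries. Of the 6 mesenchymal and osteoblast markers 5 had values in the table, and their summed level was 773, 909 and 834 CPM in siCTR and 799, 836 and 931 CPM in siLSD1. Vimentin (VIM) was the most abundant of them at 731 to 880 CPM, while the osteoblast markers SPARC and RUNX2 were at or near 0 and COL1A2 had no value in the table. VIM and COL1A1 had log2 fold changes of -0.02 and 0.17 (edgeR adjusted p of 0.959 and 0.727). The 4 epithelial markers summed to 9.70, 9.65 and 7.58 CPM in siCTR and 13.6, 12.5 and 13.3 CPM in siLSD1, with CDH1 the most abundant and KRT5 and KRT14 at or near 0. CDH1 was higher in every siLSD1 library, as were 11.4% of all genes tested. The log2 fold change of CDH1 was 0.77 (edgeR adjusted p = 0.0699), and that of EPCAM was -0.06. The blood markers PTPRC and HBB together did not exceed 0.148 CPM. FN1, which encodes the matrix protein fibronectin and was chosen after its values were seen, was 29.4, 18.5 and 32.2 CPM in siCTR and 47.7, 48.9 and 58.9 CPM in siLSD1. FN1 rose by a log2 fold change of 0.95 (edgeR adjusted p = 0.0216), and by 0.75 without siCTR replicate 2 (edgeR adjusted p = 0.0450). The edgeR adjusted p was 0.0505 without siLSD1 replicate 1, 0.0541 without siLSD1 replicate 3 and 0.212 without both libraries numbered 2. The log2 fold changes of FN1 in these fits were 1.01, 0.85 and 0.80. Its edgeR adjusted p was 0.00219 with a correction for GC content and length described below, and 1.87e-08 with replicate number as a block. In bulk RNA fewer cells of a type and less RNA per cell cannot be told apart.

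One library stood apart in the proteasome genes. The 43 genes together took 0.590%, 0.699% and 0.606% of the reads in siCTR replicates 1, 2 and 3, and 0.595%, 0.592% and 0.601% in siLSD1 replicates 1, 2 and 3. The highest was thus siCTR replicate 2, and the other siCTR libraries lay within or close to the range of siLSD1. It was the highest of the 6 libraries for 29 of the 41 proteasome genes that passed the filter on low counts (70.7%), against 27.2% of all genes tested. The median proteasome gene stood 0.31 log2 units above the mean of siCTR replicates 1 and 3 in that library, against 0.01 for all genes. The difference of this library from the mean of the 6 libraries also followed gene length across the 11844 genes, with a Spearman correlation of -0.48, whereas the other libraries ranged from -0.06 to 0.31. Other libraries followed GC content instead, with Spearman correlations of 0.42 in siCTR replicate 1, 0.56 in siLSD1 replicate 1 and -0.59 in siLSD1 replicate 3, against -0.03 in siCTR replicate 2. Genes are not independent replicates, so these correlations are a description. By the lengths implied by the deposited values, the tested proteasome genes had a median length of 2113 bases, against 3750 bases for all genes tested. The part of length in the results was not tested apart from the correction for GC content and length given below. Class medians and the fold changes of named genes that rest on siCTR replicate 2 are given with and without it.

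**Figure D1:**
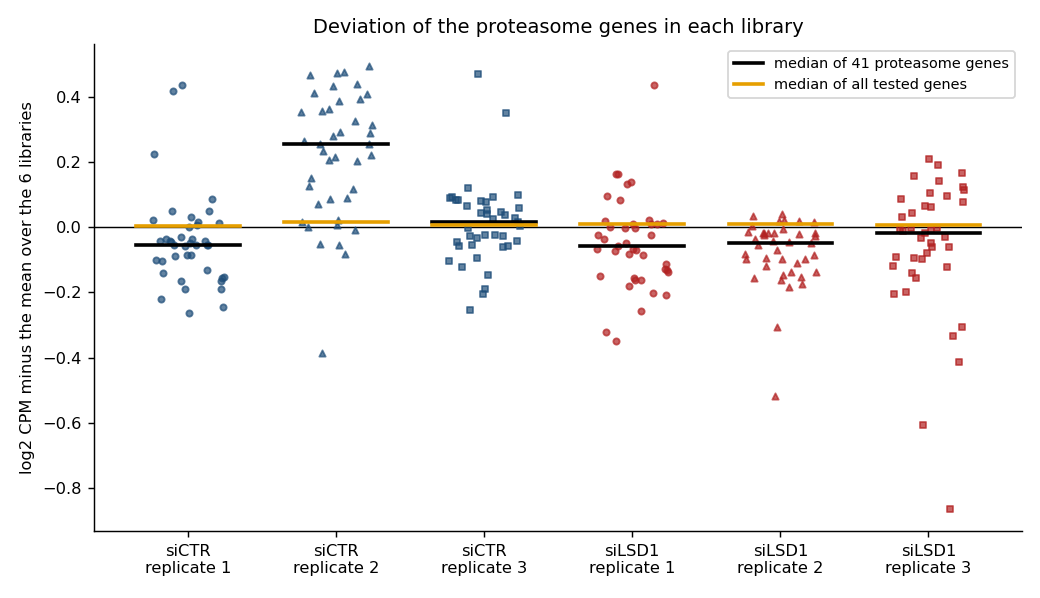
Difference of each tested proteasome gene in each library from its mean over the 6 libraries, in log2 units, by library. Points are genes, orange lines are medians of all genes tested and black lines are medians of the proteasome genes, which are -0.05, 0.25 and 0.02 in siCTR replicates 1 to 3 and -0.06, -0.05 and -0.02 in siLSD1 replicates 1 to 3.

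No proteasome gene passed the test. Of the 43 genes, 41 had enough reads to be tested, and 0 of the 41 had an adjusted p under 0.05 in edgeR in either direction, against 1.44% of all genes tested. At an unadjusted p under 0.05, 1 of the 41 was lower (PSMG1), against 6.55% of all genes, and 0 were higher, against 7.48% of all genes. DESeq2 gave 0 of the 41 at an adjusted p under 0.05, against 323 of 11844 genes, and 1 lower at an unadjusted p under 0.05, against 6.13% of all genes. The median log2 fold change of the 41 genes was -0.11, with quartiles of -0.22 and -0.03, and 34 of the 41 (82.9%) lay below 0. Over all genes tested the median was -0.01, with quartiles of -0.16 and 0.14, and 52.7% lay below 0. Without siCTR replicate 2 the median of the proteasome genes was -0.04, 26 of the 41 lay below 0 and 0 had an unadjusted p under 0.05 in edgeR. Of all genes tested in that fit 51.3% lay below 0, and 683 of 12007 (5.69%) were lower and 840 higher at an unadjusted p under 0.05. Leaving out both libraries numbered 2 gave a median of -0.01 with 23 of the 41 below 0, against 51.4% of all genes.

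From its centre to either end the 95% confidence interval of the median gene spanned 0.28 log2 units. For 32 of the 41 genes the whole interval lay within a 1.5-fold difference in either direction. At 3 libraries a group the groups did not overlap for 3 genes that were lower in every siLSD1 library (PSMA5, PSMG1 and PSMG4), against 9.97% of all genes tested. They did not overlap for 1 gene that was higher in every siLSD1 library (PSMD2), against 11.4% of all genes.

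**Figure D2:**
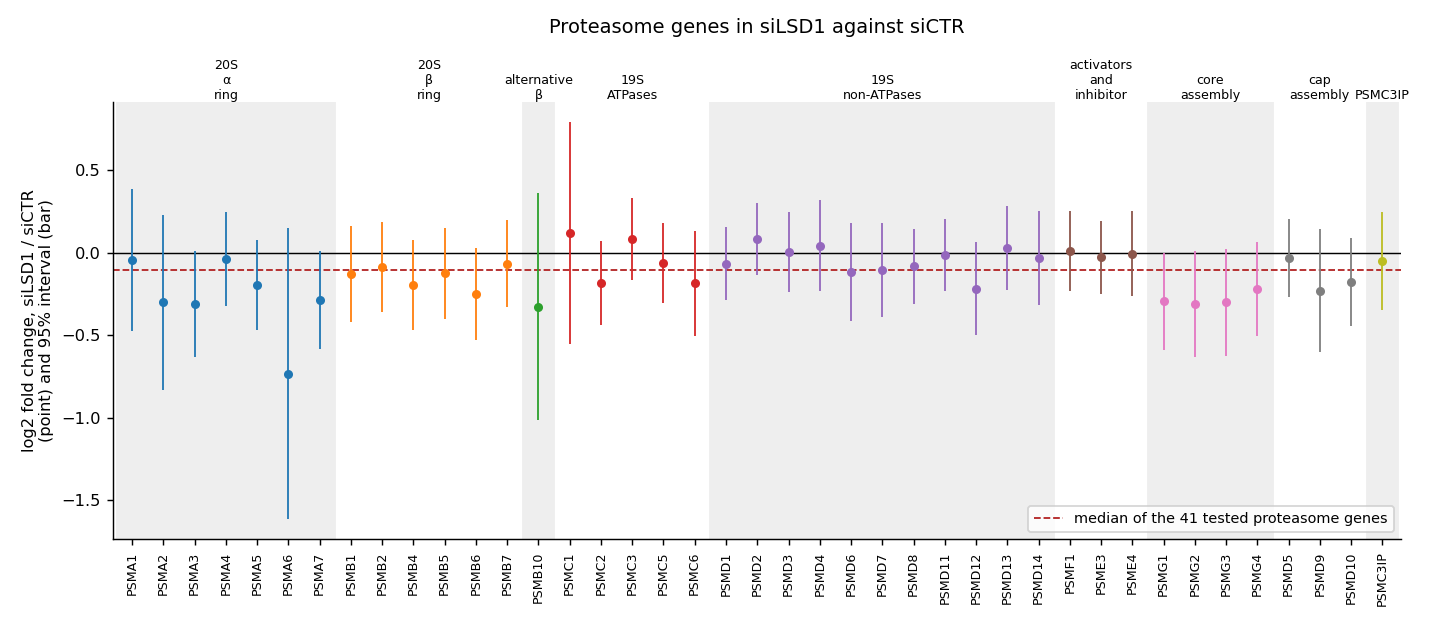
Log2 fold change of each tested proteasome gene in siLSD1 against siCTR with its 95% confidence interval (edgeR), grouped by role; the dashed line is the median of the 41 genes, -0.11. Most points lie between -0.33 and 0.12, with PSMA6 at -0.73, and 34 of the 41 lie below 0.

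Levels per length were read from the FPKM values that the authors deposited (reads scaled by transcript length and library size), since only a value per length compares genes with one another. In the α ring the mean FPKM over the 6 libraries was highest for PSMA7 at 201, followed by PSMA3 at 163, PSMA4 at 67.2 and PSMA5 at 52.2. PSMA1 at 7.03, PSMA2 at 2.65 and PSMA6 at 0.635 were far lower, although each ring holds every one of these subunits. In the β ring PSMB7 at 282 FPKM and PSMB4 at 279 FPKM stood side by side, and PSMB3 was at the bottom with 0.0160 FPKM. In the cap PSMC3 was the highest ATPase at 256 FPKM and PSMC4 the lowest at 0.00772 FPKM. The non-ATPase subunits lay closer together, between 35.3 FPKM for PSMD12 and 149 FPKM for PSMD4.

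**Figure D3:**
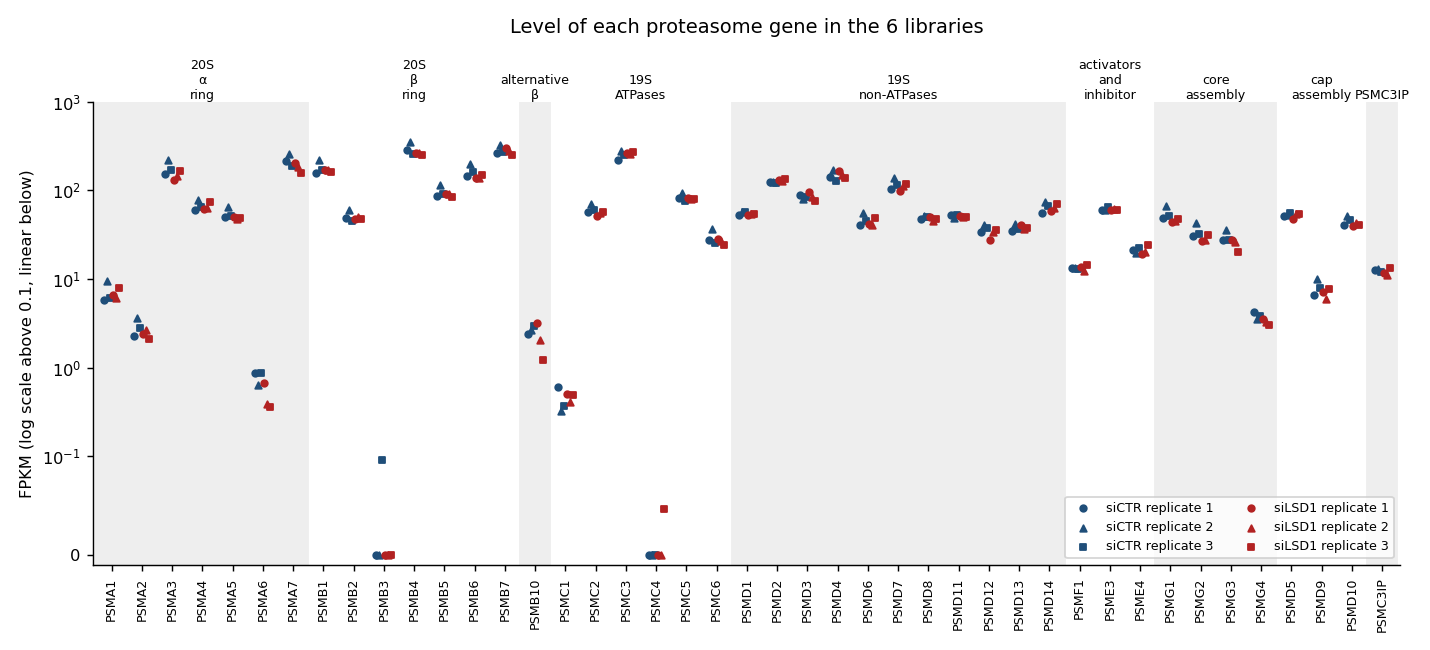
FPKM of each proteasome gene in each library on a log scale above 0.1 and a linear scale below it, grouped by role, with siCTR in blue, siLSD1 in red and a shape for each replicate. PSMB3 and PSMC4 are at or near 0 in all 6 libraries, and PSMA1, PSMA2, PSMA6 and PSMC1 lie below the rest of their classes.

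The least counted genes were set apart after their values were seen, at a mean of under 300 reads per library. Of the 43 genes, 10 were under this limit and 33 had means of 706.5 to 5930 reads. PSMB3, a structural β subunit, and PSMC4, a cap ATPase, had 1 read in 1 library each and were not tested. Both are subunits of every proteasome and the counting program is not given, so their values are uncertain as levels. To ask whether reads of these genes could have more than a single place of origin, each transcript was cut into all its words of 100 bases, and the words also found in another annotated gene were counted. The share was 100% for PSMA2, 80.8% for PSMA6, 40.0% for PSMB10, 39.1% for PSMA1, 26.1% for PSMC1 and 15.3% for PSMD9. In the remaining 4 genes under the limit it was 0.466% for PSMG4 and 0 for PSMB3, PSMC4 and PSMC3IP. Of the 33 genes above the limit, 29 shared no word and the largest share was 8.91%, in PSMC6. For PSMA1, PSMA2, PSMA6, PSMB10 and PSMD9 a gene annotated on the same strand overlaps or reads through the locus, so their levels and fold changes are uncertain. PSMC1 is uncertain too, with 13 named pseudogenes and 76.1% of its exon bases covered by other genes when both strands are counted. What lowered the counts of any of these genes was not tested.

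**Figure D4:**
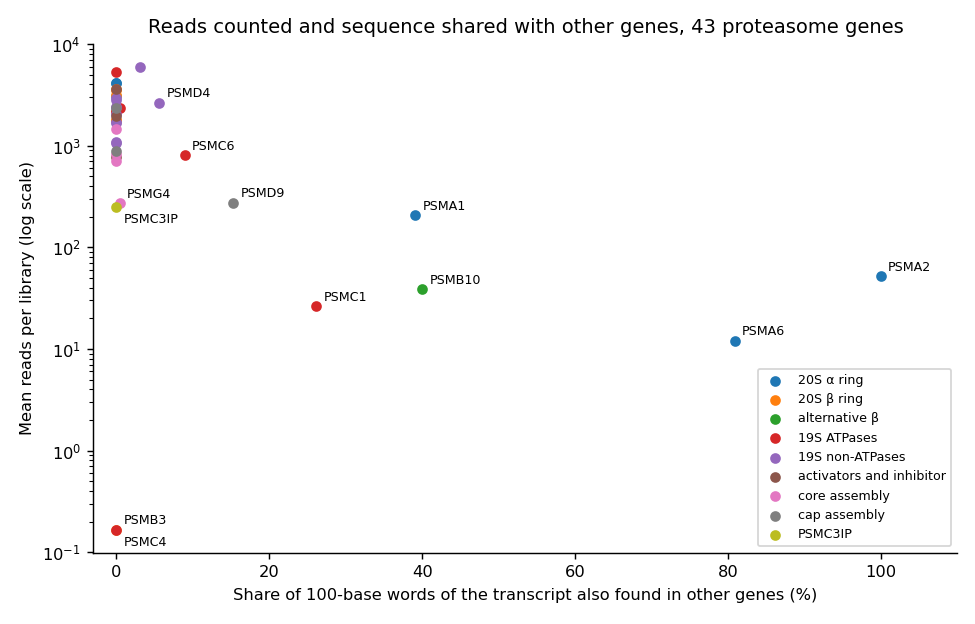
Mean reads per library (log scale) of each of the 43 proteasome genes against the share of 100-base words of its transcript that occur in other annotated genes, coloured by role. The 6 genes with shares over 10% all lie under 300 reads, and PSMB3 and PSMC4 lie near 0 reads with no shared word.

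All 7 genes of the α ring had log2 fold changes below 0, against 52.7% of all genes tested. Their median was -0.29, and none passed the test. Among them the fold changes of PSMA1, PSMA2 and PSMA6, at -0.04, -0.30 and -0.73, are uncertain because of shared or overlapping sequence. PSMA3, PSMA4, PSMA5 and PSMA7 were at -0.31, -0.04, -0.19 and -0.29. The summed α ring level was 484, 634 and 487 FPKM in siCTR replicates 1, 2 and 3 and 454, 448 and 454 FPKM in siLSD1. Every siLSD1 library was below every siCTR library, and siCTR replicate 2 lay farthest above. The group means were 535 ± 85.9 and 452 ± 3.30 FPKM (SD, n = 3). Without siCTR replicate 2 the median of the α ring was -0.09 and 5 of the 7 genes lay below 0, against 51.3% of all genes.

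PSMA7 had the highest mean FPKM of the α subunits, among which the levels of PSMA1, PSMA2 and PSMA6 are uncertain. It was 330, 409 and 299 CPM in siCTR and 313, 291 and 247 CPM in siLSD1. The groups overlapped, with siLSD1 replicate 1 above siCTR replicate 3, and its log2 fold change was -0.29 (edgeR adjusted p = 0.373), and -0.15 without siCTR replicate 2. PSMA3 and PSMA5, α subunits chosen after their values were seen, differed in how the libraries lay. PSMA3 was 146, 217 and 166 CPM in siCTR and 125, 141 and 160 CPM in siLSD1, with siCTR replicate 2 the highest and the groups overlapping. PSMA5 was 227, 301 and 231 CPM in siCTR and 226, 217 and 221 CPM in siLSD1. All 3 siLSD1 libraries of PSMA5 were lower, but siLSD1 replicate 1 was close to siCTR replicate 1. The log2 fold changes were -0.31 for PSMA3 and -0.19 for PSMA5 (edgeR adjusted p of 0.373 and 0.513). Without siCTR replicate 2 they were -0.13 and -0.05. PSMA6 had the most negative value at -0.73 (SE 0.41), and the fewest reads of the tested genes.

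The β ring had 6 tested genes, all with log2 fold changes below 0, against 52.7% of all genes tested. Their median was -0.13. Without siCTR replicate 2 the median was 0.03 and 2 of the 6 lay below 0. The summed β ring level was 990, 1269 and 995 FPKM in siCTR and 1017, 988 and 947 FPKM in siLSD1. Only siCTR replicate 2 lay above the range of the other 5 libraries by more than their own spread. The proteolytic sites are carried by PSMB5, which cuts after hydrophobic residues, PSMB6, which cuts after acidic residues, and PSMB7, which cuts after basic residues. PSMB5 was 124, 171 and 134 CPM in siCTR and 134, 134 and 125 CPM in siLSD1. PSMB6 was 127, 176 and 139 CPM in siCTR and 120, 121 and 130 CPM in siLSD1. PSMB7 was 259, 324 and 266 CPM in siCTR and 292, 272 and 247 CPM in siLSD1. In all 3 genes siCTR replicate 2 was the highest library and the groups overlapped. Their log2 fold changes were -0.13, -0.25 and -0.07, with edgeR adjusted p of 0.693, 0.415 and 0.844. They were 0.02, -0.10 and 0.05 when siCTR replicate 2 was left out.

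PSMB10 is the alternative subunit that takes the place of PSMB7 in the immunoproteasome, the form induced by interferon. It was 2.93, 3.27 and 3.64 CPM in siCTR and 3.87, 2.49 and 1.48 CPM in siLSD1, so the highest and the lowest value were both in siLSD1. Its log2 fold change was -0.33 (SE 0.32, edgeR adjusted p = 0.676), on a mean of 38.7 reads per library. Single siLSD1 libraries moved this value, which was -0.73 without siLSD1 replicate 1 (unadjusted edgeR p of 0.0438) and -0.04 without siLSD1 replicate 3.

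The ATPase ring of the cap had 5 tested genes, whose median was -0.06 on the log2 scale, and 3 of the 5 lay below 0. The median was 0.00 without siCTR replicate 2. Summed levels were 388, 475 and 411 FPKM in siCTR and 425, 422 and 432 FPKM in siLSD1, and the groups overlapped. PSMC3 had the highest mean FPKM of the ATPases, among which the levels of PSMC1 and PSMC4 are uncertain. It was 347, 441 and 392 CPM in siCTR and 409, 414 and 429 CPM in siLSD1. Its siLSD1 libraries lay inside the range of siCTR, and its log2 fold change was 0.09 (edgeR adjusted p = 0.776), and 0.18 without siCTR replicate 2. PSMC1, another ATPase and chosen after its values were seen, had the highest log2 fold change of all 41 genes at 0.12 (SE 0.31), which was -0.04 without siCTR replicate 2.

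Over the 11 non-ATPase subunits of the cap the median log2 fold change was -0.03, with 7 of the 11 below 0, and a median of 0.02 without siCTR replicate 2. Their summed level was 775, 881 and 797 FPKM in siCTR and 812, 797 and 814 FPKM in siLSD1. PSMD14, the deubiquitinase that removes the ubiquitin chain from the substrate, was 106, 147 and 131 CPM in siCTR and 115, 123 and 137 CPM in siLSD1. The groups overlapped across their range and the log2 fold change was -0.03 (edgeR adjusted p = 0.933), and 0.08 without siCTR replicate 2. PSMD4, a ubiquitin receptor of the cap, was 190, 234 and 175 CPM in siCTR and 222, 204 and 191 CPM in siLSD1. Its siLSD1 libraries again lay within the range of siCTR, with a log2 fold change of 0.04, and 0.18 without siCTR replicate 2. PSMD12, a subunit of the lid, was 150, 184 and 168 CPM in siCTR and 121, 152 and 159 CPM in siLSD1. Its lowest library was siLSD1 replicate 1, the groups overlapped, and the log2 fold change was -0.22 (edgeR adjusted p = 0.483). That value was -0.11 without siLSD1 replicate 1 and -0.14 without siCTR replicate 2.

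PSMD2, a large scaffold subunit of the cap chosen after its values were seen, was the gene that lay higher in every siLSD1 library. Its levels were 436, 449 and 434 CPM in siCTR and 455, 458 and 483 CPM in siLSD1. The gap between the groups was small, and the log2 fold change was 0.08 (SE 0.10, edgeR adjusted p = 0.753).

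The activators and the inhibitor had a median log2 fold change of -0.01, and -0.03 without siCTR replicate 2. PSME3, a nuclear activator that opens the core without ubiquitin, was 267, 275 and 291 CPM in siCTR and 268, 276 and 274 CPM in siLSD1. PSME4, the activator PA200, was 151, 142 and 160 CPM in siCTR and 134, 146 and 172 CPM in siLSD1. PSMF1, first described as an inhibitor of the core, was 59.2, 59.5 and 58.2 CPM in siCTR and 59.6, 55.4 and 63.6 CPM in siLSD1. The groups overlapped in all 3 genes and siCTR replicate 2 did not stand apart in them. The log2 fold changes were -0.03, -0.01 and 0.01. Summed levels were 94.9, 93.2 and 100 FPKM in siCTR and 92.9, 93.9 and 98.9 FPKM in siLSD1, and PSME3 at 61.1 FPKM was above PSME4 at 21.2 FPKM and PSMF1 at 13.3 FPKM.

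The chaperones of the core had the most negative median of the classes with more than 1 gene. PSMG1 pairs with PSMG2, and PSMG3 with PSMG4, and both pairs guide the α ring together. All 4 had log2 fold changes below 0, against 52.7% of all genes tested, with a median of -0.30. The median was -0.14 without siCTR replicate 2, with all 4 still below 0, against 51.3% of all genes. Their summed level was 112, 150 and 116 FPKM in siCTR and 102, 102 and 103 FPKM in siLSD1. The siLSD1 libraries were all below the siCTR libraries, by less than the distance of siCTR replicate 2 from the other siCTR libraries. The group means were 126 ± 21.1 and 103 ± 0.341 FPKM (SD, n = 3).

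PSMG1 was 105, 148 and 112 CPM in siCTR and 94.6, 97.9 and 104 CPM in siLSD1. Its groups did not overlap, although siLSD1 replicate 3 and siCTR replicate 1 were close. The log2 fold change was -0.29 with a 95% confidence interval of -0.59 to -0.00, and edgeR gave an unadjusted p of 0.0485 and an adjusted p of 0.351. Without siCTR replicate 2 the log2 fold change of PSMG1 was -0.13 and its unadjusted edgeR p was 0.221. PSMG2 was 60.0, 86.7 and 63.4 CPM in siCTR and 52.2, 54.9 and 62.3 CPM in siLSD1, with siCTR replicate 2 the highest. PSMG3 was 53.8, 70.7 and 54.3 CPM in siCTR and 53.8, 51.5 and 40.0 CPM in siLSD1. Both overlapped between the groups and had log2 fold changes of -0.31 and -0.30 (edgeR adjusted p of 0.372 and 0.401), and of -0.13 and -0.16 without siCTR replicate 2. PSMG4 was 24.2, 20.9 and 22.0 CPM in siCTR and 20.3, 19.3 and 17.9 CPM in siLSD1. It differed from its partners in that siCTR replicate 2 was the lowest siCTR library and the groups still did not overlap. Its log2 fold change was -0.22 (edgeR adjusted p = 0.484), and -0.26 without siCTR replicate 2.

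The chaperones of the cap bind ATPases while the base of the cap is built. PSMD5, PSMD9 and PSMD10 had a median log2 fold change of -0.18, and -0.05 without siCTR replicate 2. PSMD5 was the highest of them at 52.3 FPKM, and had 174, 183 and 190 CPM in siCTR and 162, 185 and 188 CPM in siLSD1. PSMD9 was the lowest at 7.52 FPKM, and had 18.1, 28.0 and 21.9 CPM in siCTR and 19.5, 16.7 and 21.6 CPM in siLSD1. The groups overlapped in both, with log2 fold changes of -0.03 and -0.23, and of -0.03 and -0.05 without siCTR replicate 2. PSMC3IP takes its name from binding PSMC3 and acts in meiotic recombination rather than in the proteasome. Its level was 12.3 FPKM and its log2 fold change -0.05. The counts of genes past either threshold were the same without it.

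**Figure D5:**
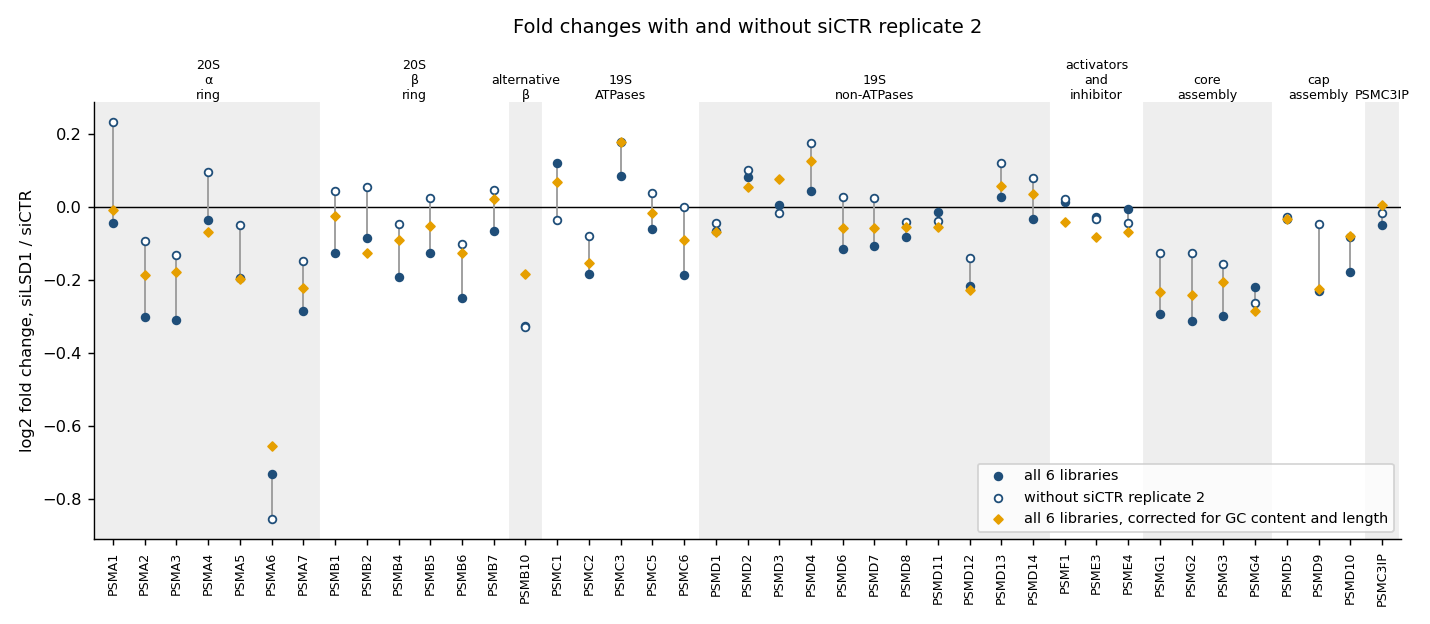
Log2 fold change of each tested proteasome gene by role, with all 6 libraries (filled circles), without siCTR replicate 2 (open circles, joined by a line) and with all 6 libraries corrected for GC content and length (diamonds). The medians are -0.11, -0.04 and -0.07.

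When each library was corrected for its trend on GC content and gene length, 0 of the 41 genes had an adjusted p under 0.05 in edgeR, against 912 of 11761 genes tested this way. The median was -0.07, with 32 of the 41 below 0, against 50.8% of all genes. At an unadjusted p under 0.05, 7 of the 41 were lower, against 11.9% of all genes tested this way, and 0 were higher, against 12.6% of all genes. The 7 were PSMA3, PSMA7, PSMD12 and the core chaperones PSMG1, PSMG2, PSMG3 and PSMG4. With the same correction and without siCTR replicate 2, 5 of them (PSMA3, PSMA7, PSMD12, PSMG1 and PSMG4) were lower at an unadjusted p under 0.05, against 11.8% of all genes. In that fit PSMD4 was higher, against 12.9% of all genes, and 0 of the 41 had an adjusted p under 0.05 in edgeR, against 1055 of 11919 genes. After the correction with all libraries, the class medians were -0.19 for the α ring, -0.07 for the β ring, -0.02 for the ATPases, -0.05 for the non-ATPases, -0.07 for the activators and inhibitor, -0.24 for the core chaperones and -0.08 for the cap chaperones.

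Replicate number as a block, together with the same correction, was the only fit in which proteasome genes passed an adjusted p of 0.05. PSMA7 and PSMD12 were the 2 genes, both lower, so 2 of the 41 against 4.68% of all genes tested this way. With the block alone, 0 of the 41 had an adjusted p under 0.05 in edgeR, against 7.57% of all genes, and 7 were lower at an unadjusted p under 0.05, against 11.2% of all genes. The labels number the libraries but do not say that libraries of the same number belong together. The authors also deposited 3 tables of same-numbered libraries.

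The promoters were searched for motifs of factors known to act on proteasome genes. Promoters of RefSeq on GRCh38.p14, from 250 bases before to 50 bases after the start, were matched by symbol, and 37 of the 43 genes had 46 promoters. PSMA7, PSMB1, PSMB6, PSMB7, PSMD4 and PSMG3 are named only. The letters TGACNNNGC, the core of the antioxidant response element that NRF1 and NRF2 bind with small MAF proteins, were searched on both strands. They were present in 12 of the 46 promoters (26.1%), against 4687 of all 35116 promoters (13.3%). The letters CCAAT, bound by NF-Y, were searched on both strands, and in 0 of the 46 promoters a match overlapped one of the first motif. They were present in 20 of the 46 promoters (43.5%), against 34.6% of all promoters. The 10 tested genes with the antioxidant response core had a median log2 fold change of -0.06 and the 25 without it -0.11. The 18 tested genes with CCAAT had a median of -0.10 and the 17 without it -0.06. A match describes the letters and is not a binding site.

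Shown here are the promoters of 4 of the 7 genes that were lower at an unadjusted p under 0.05 after the correction, those in which a motif was found before the start. Of the other 3 genes, PSMG4 held neither motif, and PSMA7 and PSMG3 were not searched. The promoters shown were chosen after the values were seen. Each is the 250 bases before the start, written 5′ to 3′ on the strand of the gene, with the motif letters in capitals. The PSMA3 promoter at chr14:58244593-58244842 on the plus strand holds CCAAT at 35 and 18 bases before the start, once on each strand. The PSMD12 promoter at chr17:67366578-67366827 on the minus strand holds the antioxidant response core at 165 bases before the start. The PSMG1 promoter at chr21:39183452-39183701 on the minus strand holds the antioxidant response core at 183 bases and CCAAT at 235 bases before the start. The PSMG2 promoter at chr18:12658488-12658737 on the plus strand holds the antioxidant response core at 39 bases before the start, and the other annotated PSMG2 promoter holds neither motif.
PSMA3: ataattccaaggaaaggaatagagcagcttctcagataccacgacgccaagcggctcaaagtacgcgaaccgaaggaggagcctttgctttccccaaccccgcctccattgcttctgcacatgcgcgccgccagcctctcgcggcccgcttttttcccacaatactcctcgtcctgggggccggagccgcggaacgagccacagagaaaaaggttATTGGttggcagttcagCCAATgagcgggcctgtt
PSMD12: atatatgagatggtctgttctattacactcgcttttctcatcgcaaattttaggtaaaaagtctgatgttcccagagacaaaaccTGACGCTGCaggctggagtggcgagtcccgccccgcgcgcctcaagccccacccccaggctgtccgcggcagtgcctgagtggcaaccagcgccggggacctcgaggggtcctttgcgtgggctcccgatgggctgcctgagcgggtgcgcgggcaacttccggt
PSMG1: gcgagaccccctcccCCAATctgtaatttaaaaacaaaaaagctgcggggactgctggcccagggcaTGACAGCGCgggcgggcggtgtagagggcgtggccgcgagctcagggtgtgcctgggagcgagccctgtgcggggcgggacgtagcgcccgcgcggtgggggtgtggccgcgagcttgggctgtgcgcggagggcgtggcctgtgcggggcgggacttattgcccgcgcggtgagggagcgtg
PSMG2: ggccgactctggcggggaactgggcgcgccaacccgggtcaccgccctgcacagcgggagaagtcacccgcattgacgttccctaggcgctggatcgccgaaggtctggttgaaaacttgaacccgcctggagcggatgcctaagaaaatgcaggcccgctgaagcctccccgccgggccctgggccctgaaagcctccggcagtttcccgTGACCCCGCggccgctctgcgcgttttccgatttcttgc

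Genes that work with the proteasome were read from 3 lists, of which all 23 genes were tested. In edgeR 0 of the 23 had an adjusted p under 0.05, against 1.44% of all genes. At an unadjusted p under 0.05, 1 was higher (MAFF), against 7.48% of all genes, and 1 was lower (NGLY1), against 6.55%. DESeq2 gave 0 of the 23 at an adjusted p under 0.05, against 323 of 11844 genes. At an unadjusted p under 0.05 it gave the same 1 higher, against 7.04% of all genes, and 1 lower, against 6.13%. The median log2 fold change was -0.08 over the 9 other proteasome genes, 0.01 over the 8 genes of the NRF1 route and -0.10 over the 6 genes of ubiquitin and its activation. Without siCTR replicate 2 these medians were -0.02, -0.00414 and -0.03.

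ADRM1, a ubiquitin receptor of the cap, had the smallest p of the other proteasome genes. It was 224, 232 and 211 CPM in siCTR and 220, 182 and 155 CPM in siLSD1, overlapping between the groups, with a log2 fold change of -0.26. It was -0.40 without siLSD1 replicate 1 (unadjusted edgeR p of 0.00875) and -0.14 without siLSD1 replicate 3. With replicate number as a block it was -0.27 (unadjusted edgeR p of 0.0180), and after the correction for GC content and length it was -0.05. In the NRF1 route, MAFF encodes a small MAF partner of NRF1. MAFF was 6.47, 9.03 and 7.44 CPM in siCTR and 12.3, 11.3 and 9.34 CPM in siLSD1. All 3 siLSD1 libraries of MAFF were higher, as for 11.4% of all genes tested, and the log2 fold change was 0.52 (edgeR adjusted p = 0.215). Its unadjusted edgeR p was 0.0638 without siCTR replicate 1 and 0.0590 without siLSD1 replicate 1, with log2 fold changes of 0.41 and 0.43. The same p was under 0.05 in the other fits. It was 0.0142 with all libraries, 0.00257 with the correction for GC content and length and 0.00408 with replicate number as a block. Without siCTR replicate 2 it was 0.00566, at a log2 fold change of 0.66.

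NFE2L1 itself, and NGLY1, the glycanase that NRF1 needs for its activation, were chosen after their values were seen. NFE2L1 was 155, 122 and 151 CPM in siCTR and 174, 159 and 164 CPM in siLSD1, with siCTR replicate 2 the lowest. Every siLSD1 library of NFE2L1 was higher, as for 11.4% of all genes tested. Its log2 fold change was 0.22 (edgeR unadjusted p of 0.0881 and adjusted p of 0.435). The log2 fold change of NGLY1 was -0.29 (edgeR adjusted p = 0.344). Both were closer to 0 when siCTR replicate 2 was left out, at 0.12 and -0.20. The unadjusted edgeR p of NGLY1 was 0.0462 with all libraries, and 0.0823 to 0.161 without siCTR replicate 2 or 3 or siLSD1 replicate 1 or 2. It was 0.0589 with a second set of deposited counts, 0.0502 with a stricter filter on low counts and 0.317 without both libraries numbered 2. RPS27A, which encodes ubiquitin fused to a ribosomal protein, was 471, 754 and 486 CPM in siCTR and 446, 445 and 529 CPM in siLSD1. Again siCTR replicate 2 was the highest library, the groups overlapped, and the log2 fold change was -0.27, and -0.01 without siCTR replicate 2.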

How the data were processed

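The authors deposited a count for each gene and library and an FPKM value for each gene and library in a single table of 6 libraries. Both were used as deposited: the count for the tests and the FPKM for levels per length. The submitters' notes name STAR for the alignment; its version, the genome build, the annotation and the counting program are not given in the sources used here. The 12 other columns of values per library, such as normalised signal, and the columns and tables of the authors' own comparisons (fold changes and p-values) were not used. A second set of counts, from the authors' 3 tables of same-numbered libraries, was used as an alternative for genes present in all 3.

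The members and gene lists were chosen with earlier results of these data known. Genes were tested with the quasi-likelihood test of edgeR 4.0.16 (limma 3.58.1, R 4.3.3) after TMM scaling and filterByExpr at a minimum count of 10, with Benjamini-Hochberg adjustment over all 11844 genes tested and a threshold of 0.05. The prior count for log values was 2, and the biological coefficient of variation was 12.6%. The fit was also tested on simulated data. Chi-square per degree of freedom between pairs of libraries was 6.19 to 37.4, and all 6 libraries were used as separate samples. Within siCTR it was 27.8 and 21.6 for replicate 2 against replicates 1 and 3, and 6.75 between replicates 1 and 3. Within siLSD1 it was 6.19 for replicates 1 and 2, 22.0 for 1 and 3, and 9.94 for 2 and 3. Alternatives were DESeq2 1.42.0, library size scaling, no filter, a filter at 1 CPM in 3 libraries, replicate number as a block, a correction of each library for its lowess trend on GC content and length (span 0.3), the block with that correction, the second counts, each library left out in turn, and the members without PSMC3IP. Leaving out both libraries numbered 2, and the correction without siCTR replicate 2, were added after seeing the data.

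Gene lengths were those implied by the deposited count and FPKM of each gene. GC content, overlaps and transcript words came from GENCODE 44, in which 15352 of 15585 genes matched, 389 of them through an older symbol. GC content was known for 11761 of the genes tested (99.3%). Promoters came from RefSeq on GRCh38.p14. The summaries and plots were made with pandas 2.3.3, numpy 2.4.6 and matplotlib 3.10.9 in Python 3.11.15.

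Genes were named by this rule: KDM1A; members with an unadjusted p under 0.05 in edgeR; PSMB5, PSMB6, PSMB7, PSMB10 and PSMD14; the activators and PSMF1; PSMG1 to PSMG4; the members with the highest and lowest mean FPKM in each class; and in each other list the genes with an adjusted p under 0.05 or, where there were none, the gene with the smallest p. Genes outside the rule are said to have been chosen after their values were seen, with some exceptions. PSMA1, PSMA2, PSMA4, PSMB4 and PSMC6 were named for their levels or shared words. The markers of cell type other than FN1 were named as members of their lists. Values of 1 further list of genes are not reported here.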

Additional observations from a re-analysis of the deposited data

How the results depend on the processing

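KDM1A kept its direction and its call under every alternative, and the median of the proteasome genes kept its sign, between -0.18 and -0.01. No proteasome gene was higher at an adjusted p under 0.05 in any fit, and none was lower except under the replicate block with the GC content and length correction, which gave 2 (PSMA7 and PSMD12). The counts without PSMC3IP were the same.

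At an unadjusted p under 0.05, 1 gene was lower with the main settings. The share of all genes lower at this threshold was 6.55% with the main settings, 11.9% with the GC content and length correction, 11.2% with the replicate block, 13.9% with both, 5.94% with no filter, 6.66% with the second counts, 6.29% with the stricter filter, 3.79% to 7.43% with a library left out in turn, 2.96% without both libraries numbered 2 and 11.8% with the correction without siCTR replicate 2. The count of proteasome genes was 7 with the GC content and length correction, 7 with the replicate block, 8 with both, 5 with no filter, 3 with the second counts and 0 with the stricter filter. It was 0 to 5 with a library left out in turn. It was 0 without both libraries numbered 2 and 5 with the correction without siCTR replicate 2, alternatives chosen after seeing the data. No gene was higher with the main settings, and 1 was under the block with the correction (PSMC3, against 14.1% of all genes) and 1 under the correction without siCTR replicate 2 (PSMD4, against 12.9%). Of all genes tested, 171 had an adjusted p under 0.05 with the main settings. This was 323 with DESeq2, 290 with no filter, 897 with the replicate block, 912 with the correction, 1262 with both, 1055 with the correction without siCTR replicate 2, 10 without both libraries numbered 2 and 58 to 136 with a library left out in turn. The cause was not tested beyond the fewer libraries in the last of these.

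Over the 32 named genes, 407 of 511 values kept their sign and their side of the threshold, whatever their size. Another 17 kept the sign and no longer passed the threshold, 49 kept the sign and passed it, though some of these were smaller, and 38 had the other sign. The threshold was an unadjusted p of 0.05, or an adjusted p of 0.05 for FN1. None of those 38 belonged to a gene that passed the adjusted test. With the GC content and length correction, the other sign was seen in PSMB7 (0.0233), PSMD14 (0.0345), PSMF1 (-0.041) and PSMC3IP (0.00437). With that correction without siCTR replicate 2 it was seen in PSMB5 (0.00586), PSMB7 (0.0187), PSMD14 (0.0628), PSMF1 (-0.0109), PSMA1 (0.203) and PSMC1 (-0.067). Under the replicate block with the correction it was seen in PSMB7 (0.0214), PSMD14 (0.0365), PSMF1 (-0.0416) and PSMA1 (0.00656). Without both libraries numbered 2 it was seen in PSMB5 (0.0101), PSMB7 (0.0451), PSMD14 (0.0907), PSMD9 (0.0478), PSMC3IP (0.0419), RPS27A (0.0309) and PSMA1 (0.312). With the stricter filter it was seen in PSME4 (6.82e-05). With a library left out in turn, the values ran from -0.22 to 0.0245 for PSMB5, -0.13 to 0.0457 for PSMB7, -0.15 to 0.0789 for PSMD14, -0.0566 to 0.00696 for PSME3, -0.11 to 0.0703 for PSME4, -0.0353 to 0.0707 for PSMF1, -0.045 to 0.18 for PSMD4, -0.0707 to 0.0332 for PSMD5, -0.14 to 0.0128 for PSMC3IP, -0.18 to 0.23 for PSMA1 and -0.0353 to 0.43 for PSMC1. The other named genes kept their sign in every such fit, with -0.35 to -0.10 for PSMB6, -0.73 to -0.0383 for PSMB10, -0.39 to -0.13 for PSMG1, -0.41 to -0.13 for PSMG2, -0.38 to -0.16 for PSMG3, -0.26 to -0.16 for PSMG4, -0.45 to -0.0937 for PSMA2, -0.43 to -0.13 for PSMA3, -0.27 to -0.0479 for PSMA5, -1.07 to -0.56 for PSMA6, -0.38 to -0.15 for PSMA7, 0.00151 to 0.18 for PSMC3, 0.0566 to 0.10 for PSMD2, -0.37 to -0.0478 for PSMD9, -0.29 to -0.11 for PSMD12, -0.40 to -0.14 for ADRM1, 0.41 to 0.66 for MAFF, -0.39 to -0.0144 for RPS27A, -0.38 to -0.20 for NGLY1, 0.12 to 0.28 for NFE2L1 and 0.75 to 1.11 for FN1. The cause was not tested.

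In the replicate block, libraries of the same number shared a term. The number alone does not show a pairing, though the authors also deposited 3 tables of same-numbered libraries. Another hint came from the data. The correlation across genes of the departures from the group mean was 0.328, 0.0744 and 0.310 for replicates 1, 2 and 3. Each library correlated best with the library of its own number. Genes are not independent replicates, and this is a description.

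With 3 libraries a group, the 95% confidence interval of a proteasome gene reached from 0.22 to 0.88 log2 units to either side, with a median of 0.28, before any adjustment for the number of genes. Of the tested genes, 4 had under 100 reads on average. The median of the proteasome genes was -0.04 without siCTR replicate 2, against -0.11 with it.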
